A study of Xenopus tropicalis with 3 samples.

Results

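The 6 genes described here, myod1, myf5, myf6, myog, pax3 and pax7, encode the transcription factors that specify skeletal muscle and carry muscle progenitors into differentiation. Their accessible chromatin was read from the ATAC-seq peak list of the stage 65 urostyle of Xenopus tropicalis. ATAC-seq uses a transposase to cut and tag open DNA. The genes were chosen by name, and each was given a window of its annotated span plus 50 kb to each side. All 6 were found among the 21748 protein-coding genes annotated on chromosomes 1 to 10. Their windows held 178 of the 311625 peaks of the stage 65 list.

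The urostyle is the bony rod at the rear of the frog trunk, formed at metamorphosis while the tail is lost. The study profiled it at stages 56, 61 and 65, with 1 library per stage. The labels give the tissue as urostyle and name no strain, mutation, drug or hormone treatment, nor the number of tadpoles per library. The whole dissected tissue was crushed, so the library holds every cell type of the sample, and open sites in fewer cells cannot be told apart from less open sites in each cell. The lists of stages 56 and 61 use another coordinate system and were not analysed here for these genes, so every value below belongs to stage 65 and no difference between stages was tested.

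Skeletal muscle is specified by a small family of basic helix-loop-helix proteins, Myf5, MyoD, Myf6 (also called Mrf4) and myogenin, which bind E-box sequences together with E proteins. Myf5 and MyoD commit cells to the muscle fate, myogenin drives the fusion and differentiation of committed cells, and Myf6 acts in both determination and fibre maturation. Pax3 and Pax7 are paired-box proteins that act upstream, in muscle progenitors of the somite and, for Pax7, in the satellite cells that renew adult muscle. Both Pax genes are also used in the dorsal neural tube and neural crest, so an open site near either is not specific to muscle.

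The windows of the 6 genes, of which those of myf5 and myf6 overlap, differed in peak coverage and height. The windows of myod1 and pax7 carried wide, high peaks that covered 55.1% and 46.0% of the DNA, whereas those of myf5, myf6 and myog carried few, narrow and low peaks that covered 6.45%, 7.69% and 7.37%. The pax3 window lay between, with 40 peaks over 19.7% of its length, all of them low. Both loci with high peaks lay close to a chromosome end, where windows of other genes had similar values. The highest fold in a window was 43.0 at myod1, 38.8 at pax7, 5.69 at pax3, 4.19 at myog and 4.04 at the shared locus of myf5 and myf6. The fold is the deposited ratio of the pileup of sequenced fragments or reads at a peak's summit to the background.

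The folds were whole multiples of 0.150, within a tolerance of 0.01 multiples for peaks of ordinary height, in 100% of peaks. Such a step corresponds to a background of 5.68 counts, called fragments here, and lets each fold be read as a number of them. The step, and so the background, was the same for all peaks, so a fold does not compare a peak with the DNA around it. No source used here says whether a count is a whole fragment or a read, and the intervals below take counts as independent. The median summit of the whole list held 21 fragments and the lowest 12. Differences of a few fragments between low peaks are therefore within counting error: the 95% exact Poisson interval of a summit of 23 fragments runs from 14.6 to 34.5, and that of 16 fragments from 9.15 to 26.0. With 1 library, all intervals given here cover counting error only. They do not allow for each summit being the highest point of a region that passed peak calling. No source used here names the genome build of the stage 65 list. On each of the 10 chromosomes its last peak ended between 1.88 and 191 kb beyond the last protein-coding gene of the UCB_Xtro_10.0 gene table. Summits were 1.24 times as dense within 500 bp of a gene end as 5 to 10 kb away, and those of folds 4 to 8 were 1.79 times as dense. Distances to genes below rest on this table, which gives no strand, so a left end and a right end are named by position and either may be the start.

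**Figure D1:**
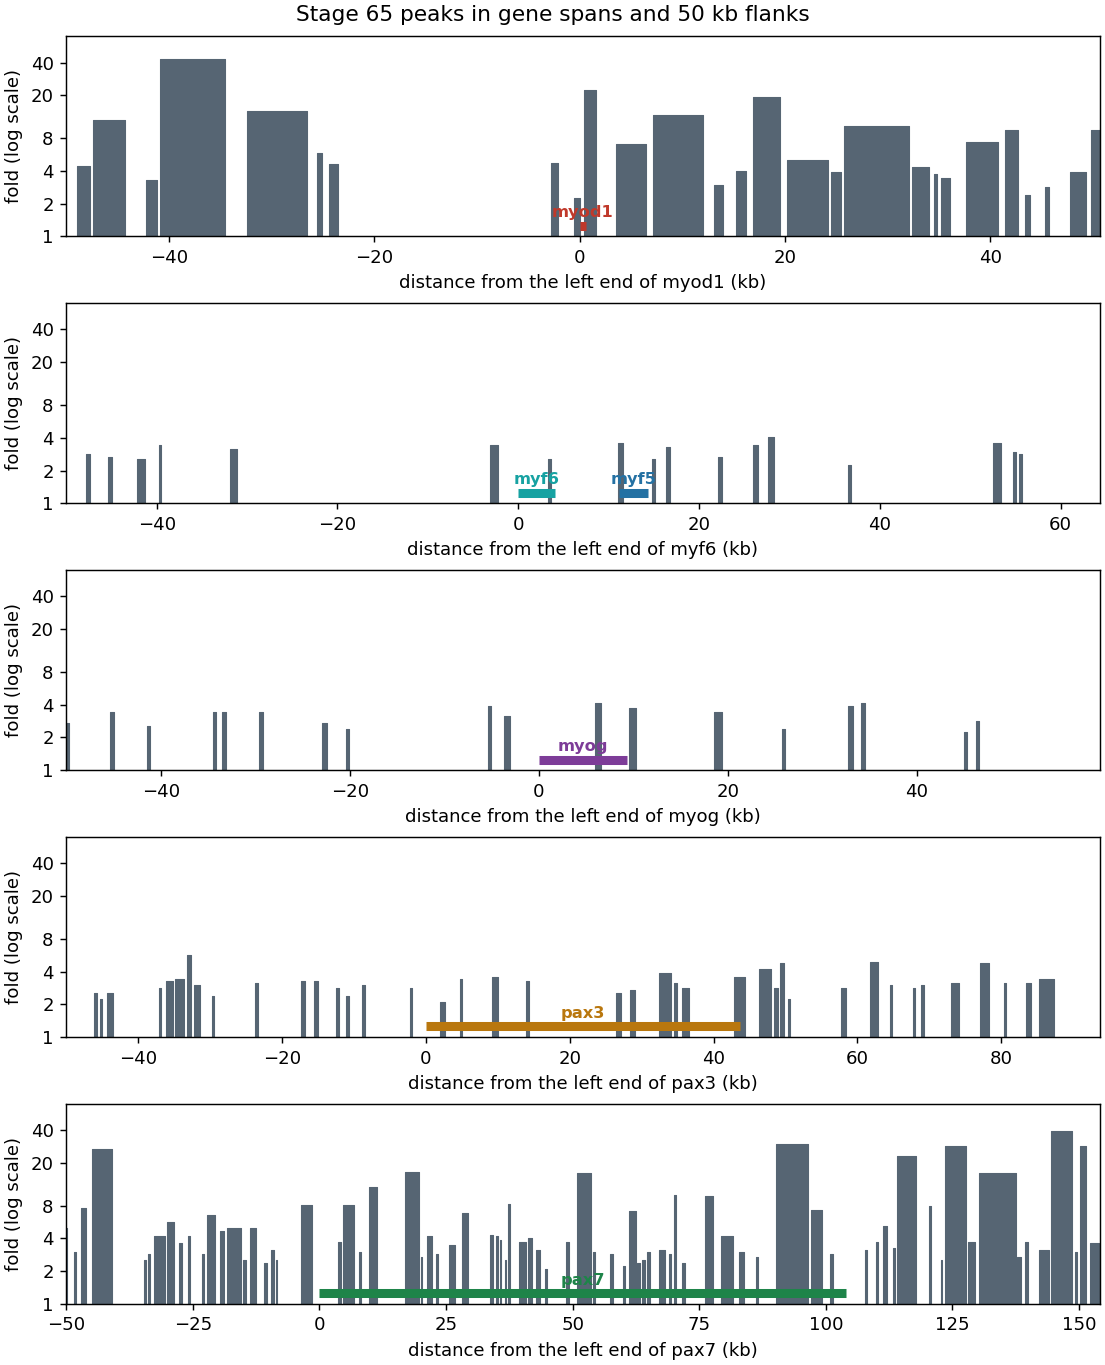
Every stage 65 peak in the 5 separate loci, drawn at its width against distance from the left end of the leading gene in kb, with height as fold on a log scale and the coloured bar as the annotated gene span. The myod1 and pax7 panels hold tall, wide peaks up to folds of 43.0 and 38.8, while the other panels stay below a fold of 6.

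The muscle determination gene myod1 had 27 peaks in its window. The peak at a gene end had a fold of 22.2 and lay on chromosome 4 at 903079 to 904290, with 147 fragments at its summit (95% interval 124 to 173). It overlapped the last 217 bp of the annotated span and reached 995 bp beyond its right end, with the summit 379 bp outside. A second, low peak at 902141 to 902660 had a fold of 2.25 and 14 fragments, and ended 12 bp before the left end. No summit lay inside the span.

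The annotated myod1 span is only 624 bp long, at percentile 0.959 of protein-coding gene spans. It holds at most 208 codons, fewer than the residues of a full-length vertebrate MyoD protein. The span therefore cannot contain the whole coding sequence, and its ends need not be the ends of the gene. The 22.2-fold peak is a peak at the annotated position of myod1, but whether it marks the start of the gene cannot be told from the table.

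The flanks of myod1 were unequal. The left flank held 9 summits and was covered to 40.6%, and the right flank held 18 and was covered to 69.9%. The left flank included a gap of 20736 bp, from 879139 to 899874, without any called peak. Beyond that gap lay the highest peak of the window, at 861816 to 868156, which was 6341 bp wide with a fold of 43.0 and 286 fragments (254 to 321). Its summit was 39.2 kb from the gene. On the right, the next peaks outward had folds of 7.04, 13.2, 2.99, 4.04 and 19.2 within 17.6 kb of the gene by summit. The right flank also holds the potassium channel gene kcnc1, 21.1 kb away, with 10 of the 27 peaks touching it and folds up to 10.3.

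Against all windows, myod1 peaks were wide as well as high. Their median width was 1264 bp, at percentile 94.9 of windows, and 10 of 27 exceeded 2 kb, against 7.81% of all peaks. Peaks in like places were no narrower. The median width 0.5 to 1 Mb from an end was 1558 bp on this arm of chromosome 4 and 1373 bp over all chromosome ends. In the 200 kb beyond the window it was 1495 bp on the left and 1741 bp on the right. The peak at the gene end, at 1212 bp, was close to the median width of the myod1 window but narrow for its height. Of the 4616 peaks on chromosomes 1 to 10 with a fold of 20 or more, 437 (9.47%) were no wider than 1500 bp. Within the first 2 Mb of chromosome 4, 3 of 51 peaks past that fold were so narrow.

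Myf5 and myf6 lie next to each other, 7073 bp apart, as in other vertebrates, and their windows shared 11 peaks of 13 and 15. The 17 separate peaks of this locus had folds from 2.25 to 4.04. Their values are not independent of each other. The peak at the left end of myf5, at 52543833 to 52544357 on chromosome 3, crossed that end and had a fold of 3.59 with 23 fragments. A further peak, at 52547591 to 52547904, began 515 bp beyond the right end with a fold of 2.55 and 16 fragments.

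Myf6 had a single gene-end peak, at 52536017 to 52536351, inside the span and 480 bp from the right end, with a fold of 2.55 and 16 fragments. Its interval, 9.15 to 26.0 fragments, overlaps that of the peak at the left end of myf5. No peak was called between those of myf6 and the left end of myf5, a stretch that includes the non-coding RNA gene LOC116409732. The highest peak of the locus lay at 52560428 to 52561059, to the right of myf5 with its summit 13.9 kb away, and had 26 fragments. To the left of myf6 a stretch of 27992 bp, from 52501593 to 52529584, held no peak. The inner ear phosphatase gene ptprq and the scaffold protein gene lin7a flank the pair, and their parts in both windows had folds of at most 3.59.

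Myog, which encodes myogenin, had 18 peaks with folds from 2.25 to 4.19 and widths from 301 to 803 bp. The median width of 394.5 bp was at percentile 1.89 of all windows. A summit inside the span, at 54942312 to 54942933 on chromosome 2, had a fold of 4.19 and 27 fragments. It overlapped LOC116408819, a non-coding RNA gene annotated within the span. The gene-end peak began 231 bp beyond the right end, at 54945963 to 54946703, with a fold of 3.74 and 24 fragments (15.4 to 35.7). The left end had no peak within 1 kb, and the nearest was 2985 bp away with a fold of 3.14. A further pair to the right, with summits 23.4 and 24.9 kb from the gene, had folds of 3.89 and 4.19, and the second of these equalled the peak inside the span as the highest of the window. No other protein-coding gene lay in the myog window.

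Pax3, the progenitor factor of the somite, had 40 peaks with a median fold of 3.07, close to the 3.29 of the whole list. Summits numbered 16 in the left flank, 10 in the span and 14 in the right flank, or 3.20, 2.29 and 2.80 per 10 kb. The highest peak, at 124920340 to 124920927 on chromosome 5, had a fold of 5.69 and 37 fragments (26.1 to 51.0) and lay 32.9 kb to the left. It stood in a group of 5 neighbouring peaks between 124916477 and 124922203. The right end was crossed by a peak of 1557 bp at 124996350 to 124997906 with a fold of 3.59. Beyond it followed peaks with folds of 4.19 and 4.79, with summits 3.03 and 5.91 kb from that end. The left end had no peak within 1 kb. The nearest lay 1871 bp outside it, with a fold of 2.84. The protein-coding gene LOC105948357, 41.6 kb to the right, was touched by 1 peak of the window, with a fold of 3.44. Of the 40 peaks 9 were wider than 1 kb, and 0 were wider than 2 kb.

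Pax7, which marks satellite cells, had 76 peaks, the most of the 6 genes, in the longest window, 204049 bp. The density of 3.72 peaks per 10 kb was at percentile 92.3 of protein-coding genes. By summit, 20 peaks lay to the left of the span, 39 in it and 17 to its right. The outermost peak on the left reached into the window, but its summit lay 50.3 kb from the gene, outside the flank. Summits numbered 3.75 per 10 kb in the span and 3.40 per 10 kb in the right flank. Coverage was 43.1% of the left flank, 40.4% of the span and 60.5% of the right flank. Both ends of pax7 lacked a peak within 1 kb despite this density. The nearest peak to the left end lay 1455 bp outside it, at 130400154 to 130402380 on chromosome 7, with a fold of 8.08 and 53 fragments (39.7 to 69.3). The nearest to the right end lay 2558 bp inside, at 130504612 to 130505325, with a fold of 2.84.

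Of the pax7 peaks 6 had folds of 20 or more. The highest, at 130548227 to 130552393, had a fold of 38.8 and 258 fragments (227 to 291), with its summit 42.6 kb beyond the right end. Others on that side had folds of 28.6, 28.4 and 22.9, and one on the left had 26.5. The high peak within the span, at 130493893 to 130500228, had a fold of 29.6, with its summit 13.4 kb from the right end. The peak at 130554047 to 130555272 was narrow for its height, at 1226 bp with a fold of 28.4. At the other extreme 26 of the 76 peaks had folds under 3, so high and low peaks were interspersed. The proline-catabolism gene aldh4a1, 44988 bp to the left, was the other protein-coding gene in the window and was touched by 3 of its peaks, with folds up to 7.64.

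**Figure D2:**
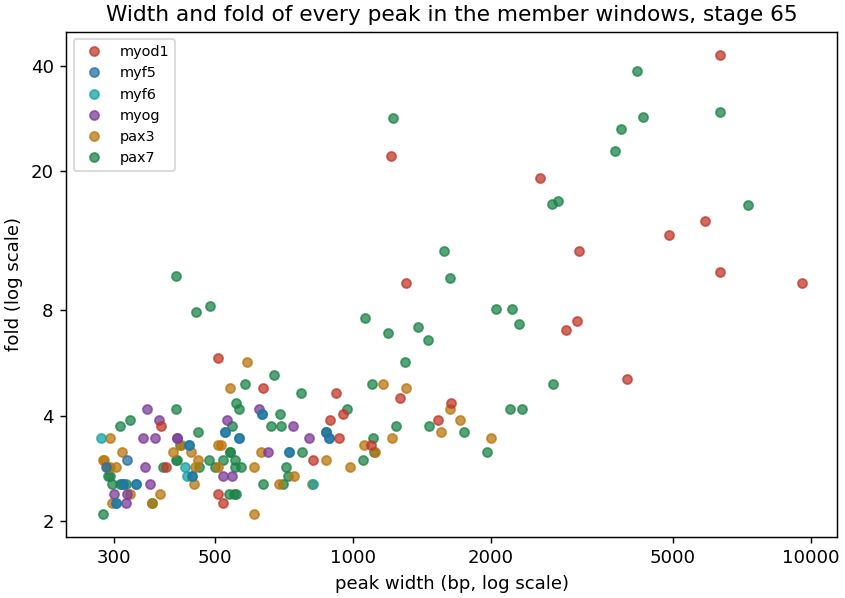
Width in bp and fold, both on log scales, of every peak in the 6 windows, coloured by gene; peaks shared by myf5 and myf6 are drawn for both. The peaks of myf5, myf6 and myog are all at most 888 bp wide with folds up to 4.19, while the points with folds of 8 or more belong to myod1 (9 peaks) and pax7 (15 peaks).

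A peak within 1 kb of a gene end was present at 5 of 6 members, all except pax7, and the same was true of 85.7% of protein-coding genes. In count the 6 genes are near that background. Only myod1 had a gene-end peak with a fold of 8 or more, a level found at 15.9% of protein-coding genes. Its 22.2-fold peak was at percentile 96.5 by best gene-end fold. The corresponding percentiles were 43.9 for myog (3.74), 40.1 for both myf5 and pax3 (3.59) and 17.9 for myf6 (2.55). The summits of these 4 genes held 24, 23, 23 and 16 fragments, and their counting intervals overlap, so no order among them is supported. The median best gene-end fold was 3.59 over the 6 members and 4.04 over all protein-coding genes, with genes lacking a peak set to 0. It was 3.59 over genes more than 20 Mb from a chromosome end, where myog, myf5, pax3 and myf6 lie.

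Over whole windows, 2 of 6 members, myod1 and pax7, had a peak with a fold of 8 or more, against 61.7% of protein-coding genes. The same 2 had a peak with a fold of 20 or more, against 28.5%. The other 4 genes had none of either kind. The median highest fold over the 6 members was 4.94, against 10.6 over all protein-coding genes. By peaks per 10 kb, 3 members (myod1, pax3 and pax7) exceeded the median gene, as 50% of genes do by definition, and the same 3 exceeded it in covered share. The medians of the 6 members were 2.16 peaks per 10 kb and 13.7% covered, against 2.37 and 17.8% over all protein-coding genes. The members were named by hand and myf5 and myf6 share most of their peaks, so these counts are a description.

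**Figure D3:**
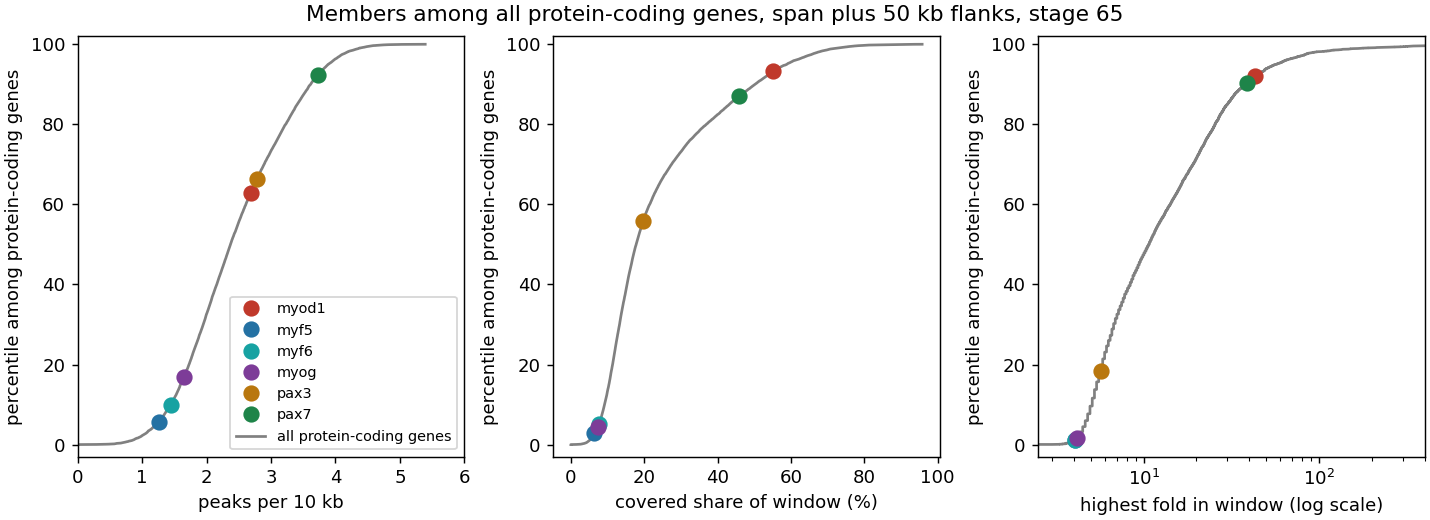
Peaks per 10 kb, covered share in percent and highest fold (log scale) in the window of each member (points), on the cumulative curve of all 21748 protein-coding genes (line). Myf5, myf6 and myog sit at the foot of all 3 curves, at percentiles 1.12 to 16.8, and myod1 and pax7 near the top of the covered share and highest fold curves, at percentiles 87.0 to 93.2.

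The place of each gene along its chromosome went with these values. The left end of myod1 lay 0.903 Mb from the first base of the assembled chromosome 4, with 16 protein-coding genes and 218 peaks nearer to that end. Pax7 lay 3.06 Mb from the last called peak of chromosome 7, taken as its right end and 9.65 kb beyond the last protein-coding gene. The others were far from any end, at 39.0 Mb for pax3, 52.5 Mb for myf5 and myf6 and 54.9 Mb for myog. Across the 10 chromosomes, the covered share was 63.5% in the outermost 0.5 Mb, 57.3% from 0.5 to 1 Mb, 41.6% from 3 to 4 Mb and 14.0% beyond 20 Mb. The share of peaks with folds of 8 or more was 34.1%, 33.4%, 18.6% and 2.80% in the same belts.

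Set against genes at the same distance from an end, myod1 had lower percentiles by covered share, highest fold and gene-end fold than among all genes. Among the 267 protein-coding genes 0.5 to 1 Mb from an end, its covered share of 55.1% was at percentile 40.3, its highest fold of 43.0 at percentile 58.6 and its gene-end fold of 22.2 at percentile 77.7. That gene-end fold was above the upper quartile of the class, 21.4. By peaks per 10 kb myod1 was at percentile 66.1, against 62.9 among all genes. All 267 had a window peak with a fold of 8 or more, and 68.9% had a gene-end peak of that height. Pax7 among 512 genes at 3 to 4 Mb was at percentile 53.0 by covered share, 82.3 by highest fold and 78.0 by peaks per 10 kb. It was low by gene-end fold (percentile 3.61), since 92.8% of those genes had a gene-end peak. The highest fold is a maximum over the window, which was long at pax7, with a span at percentile 93.4 of protein-coding gene spans. Percentiles of highest fold and counts of windows with high peaks were not adjusted for window length. How much of the height at myod1 and pax7 goes with their place on the chromosome was not tested.

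The 4 interior genes were set against the 13850 protein-coding genes more than 20 Mb from an end. There, myf5, myf6 and myog remained low, at percentiles 3.95, 7.56 and 6.39 by covered share and 1.69, 1.69 and 2.67 by highest fold. Of those 13850 genes 42.7% had a window peak with a fold of 8 or more. Pax3 was high by peaks per 10 kb and covered share, at percentiles 85.2 and 81.0, and below the middle by highest fold, at 28.2. Pax3 thus combined many peaks with low summits. By gene-end fold, the percentiles among these interior genes were 54.3 for myog, 49.8 for both myf5 and pax3 and 22.4 for myf6.

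**Figure D4:**
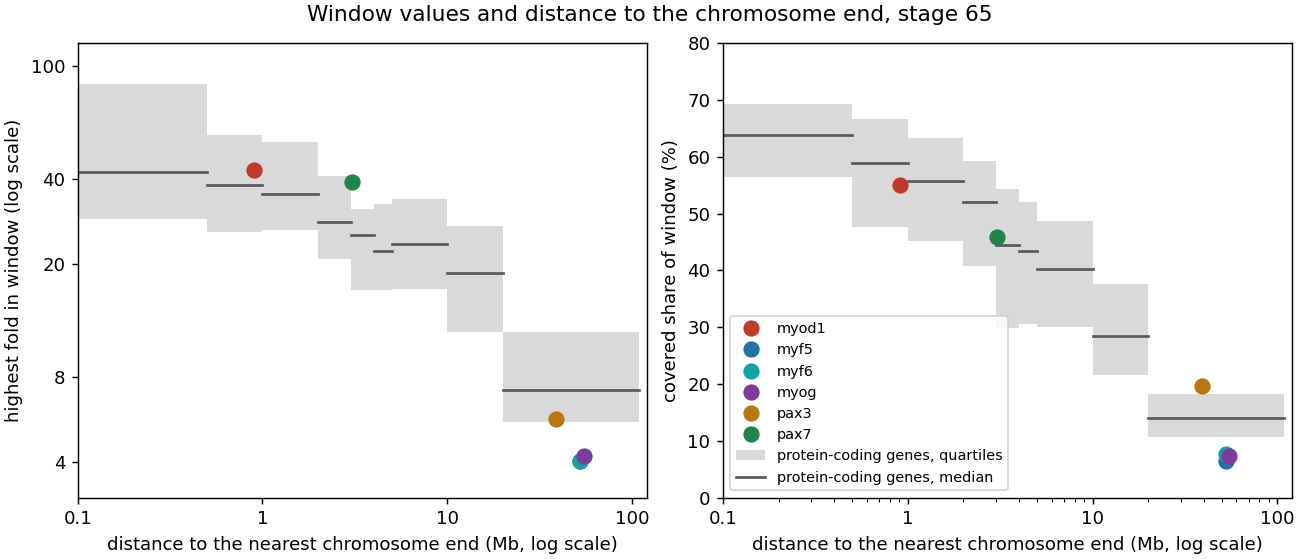
Highest fold (log scale, left) and covered share in percent (right) of the 6 member windows (points) against distance to the nearest chromosome end in Mb on a log scale; grey boxes and lines are the quartiles and medians of all protein-coding genes in 9 distance classes, the first drawn from 0.1 Mb. Myod1 lies within the quartiles of its class in both panels and pax7 above them by highest fold only, pax3 within them by highest fold and above them by covered share, whereas the overlapping points of myf5 and myf6 and that of myog lie below them in both.

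Each window was also set beside the 200 kb beyond it on the left and on the right. Peaks covered 55.1% of the myod1 window, against 57.2% and 61.3% of its surroundings, where the highest fold was 311. The pax7 window was covered to 46.0%, against 50.8% and 55.7% of its surroundings, where folds reached 34.7. The pax3 window, at 19.7%, was close to its surroundings at 16.1% and 18.2%. The myog window was less covered, at 7.37%, than its surroundings at 14.0% and 11.1%, which reached a fold of 7.79. The myf5 window had 6.45%, against 7.66% and 7.18% around it, and the myf6 window had 7.69%, against 6.84% and 6.74% around it. To the left of myf5 and to the right of myf6, the surroundings include part of the other gene's window. No replicate exists to place an error on these differences.

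The 22.2-fold peak of myod1 was one of many high peaks near that chromosome end. By fold it ranked 40 among the 507 peaks of the first 2 Mb of chromosome 4, 17 among 244 in the first 1 Mb and 75 among 1521 in the first 5 Mb. Among the 35 protein-coding genes of the first 2 Mb, myod1 ranked 10 by gene-end fold, where the median gene had 13.8. Tph1, a serotonin synthesis gene named after its values were seen, led with 60.3. Over chromosomes 1 to 10, 3719 peaks had a higher fold than the myod1 peak, which was at percentile 98.8 of all peaks.

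Likeness in peaks per 10 kb, covered share and highest fold was measured as the distance between percentiles in this 1 library. It was sought only among protein-coding genes outside every member window whose symbol is not a LOC number. Within that set, the nearest genes to myod1 were tbx15 (1.78 percentile points) and vim.2 (2.04). Those nearest to myf5 were ccdc89 (0.662) and ttll3 (0.690), and to myf6 gtf2h5 (0.280) and mif (0.325). Myog was nearest to steap4.2 (0.519) and gpr183.1 (1.27), pax3 to rhou (0.901) and vps37d (1.96), and pax7 to b4galnt3 (1.14) and kdm5a (1.53). None of these is a member of the muscle lists. Tbx15 lay 2.11 Mb from a chromosome end, but vim.2 lay 22.1 Mb away, against 0.903 Mb for myod1. B4galnt3 and kdm5a lay 9.83 and 9.94 Mb away, against 3.06 Mb for pax7.

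Gene-end peaks at genes that work with the 6 regulators were read beside the 85.7% of all protein-coding genes that had one. Cofactors and upstream regulators had one in 15 of 17 matched genes, with folds of 16.2 at tcf4, an E protein that pairs with the myogenic factors, 5.54 at tbx1, a regulator of head muscle, 4.94 at six4, a homeobox activator of the myogenic genes, and 4.79 at tcf3, another E protein. The phosphatase coactivator genes eya1 and eya2 had none. Inhibitors of myogenesis and Notch pathway genes had one in 11 of 11, with 5.99 at both rbpj, the Notch effector, and id2, which sequesters E proteins, 5.39 at hey1, and 5.09 at both hes1 and id4. A gene-end fold of 8 or more was found at 0 of these 11, against 15.9% of protein-coding genes. All but notch1, at 6.56 Mb, lay more than 20 Mb from a chromosome end, where the share was 4.74%. The list counts were not matched for distance to an end. A gene-end fold of that height was found at 1 of the 17 cofactors and upstream regulators. Of the lists described next, it was found at 1 of 9 fusion and satellite cell genes and 3 of 26 contractile and excitation genes.

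Genes of fusion and satellite cells had a gene-end peak in 8 of 9, with folds of 83.1 at itga7, the laminin receptor subunit of muscle, 6.74 at mymk, the fusion protein myomaker, 4.79 at ncam1 and 3.89 at met, and none at vcam1. Contractile and excitation genes had one in 20 of 26 (76.9%), against 85.7% of all protein-coding genes. The highest folds there were 14.2 at atp2a1, the calcium pump of fast fibres, 12.9 at mylpf, 12.4 at tpm2 and 5.69 at tnni2. Of these, atp2a1 and tpm2 lay 0.602 and 0.786 Mb from a chromosome end, like myod1, whereas mylpf and tnni2 lay 13.6 and 21.8 Mb away. Itga7, with the highest gene-end fold of the muscle lists, lay 44.0 Mb from an end. No gene-end peak was called at tnni1, tnnt1, cacna1s, pvalb, chrna1 or chrnd. The median gene-end fold was 4.34, 4.64, 3.59 and 3.59 in the 4 lists. The lists thus had values on both sides of the 4.04 over all protein-coding genes. None was below the 3.59 over genes more than 20 Mb from an end, though not all list genes lie that far from one.

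Markers of the labelled tissue were read by the same measure. Gene-end peaks were called at 5 of 6 cartilage genes, 5 of 5 bone genes, 2 of 3 tendon genes, 2 of 2 notochord genes and 2 of 3 blood genes, and acan, tnmd and hba1 had none. With 85.7% of all genes occupied, these counts neither mark nor exclude a cell type, and the same holds for muscle.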

How the data were processed

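Peak lists of 3 ATAC-seq libraries were deposited, 1 per stage. Per the submitters' processing notes Bowtie2, Picard, MACS2 and Genrich were used, without versions or roles; no source used here gives the build, the read filters or any transposase shift. In the deposited stage 65 list, column 7 is a fold ratio, the score is 10 times the −log10 q, and −log10 p and −log10 q belong to the summit, with a smallest −log10 q of 1.45. At stages 56 and 61 the deposited signal is a peak area, from which the deposited score derives; only their numbers of peaks, 4564 and 6806, were used. Total read depth is unknown; summit fragments were recovered as fold divided by its step minus a pseudocount of 1.

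Windows were gene spans plus 50 kb. A peak counted when it shared at least 1 bp, and was placed by its summit. Gene-end peaks lay within 1 kb of an end. The right end of a chromosome was taken as the end of its last peak or protein-coding gene, so distances to it are least distances. Percentiles are over 21748 protein-coding genes, with ties split evenly. Most like genes were sought only outside the member windows and among symbols that are not LOC numbers. Genes named are the 6 members, their window neighbours, the 2 most like genes each and, per list, up to 4 genes with the highest gene-end folds (5 where folds tied) plus those with none; tph1 falls outside this rule. The members, lists and comparisons were chosen with earlier results of these data known. The counting code was checked on simulated data. Python 3.11.15, numpy 2.4.6, pandas 2.3.3 and scipy 1.17.1 were used. No sequence was used here.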

Additional observations from a re-analysis of the deposited data

How the results depend on the processing

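No paired analysis was possible because each stage has 1 library and no test between groups was made. Counts of members stayed within 1.5 times under every setting tried: 2 or 3 of 6 exceeded the median gene by peaks per 10 kb and by covered share, 2 of 6 by highest fold, and 4 to 6 of 6 had a gene-end peak. All 6 had one with windows of 2.5 kb, which adds the 8.08-fold peak of pax7, and 4 when peaks at or under the median −log10 q of 5.60 were left out, which drops that of myf6. The share of all protein-coding genes was not counted under either setting, so these counts have no background to be read against. Comparing each member with the median of genes at the same distance from a chromosome end, a setting chosen after seeing the data, gave 3, 2 and 2 of 6 by peaks per 10 kb, highest fold and covered share. The rank of the myod1 gene-end peak by fold was 6 among peaks up to 2 kb wide in the first 2 Mb of chromosome 4, against 40 among all. Peaks with folds of 20 or more there were mostly wide, with 3 of 51 no wider than 1500 bp. Among peaks of all widths the rank was 17 in the first 1 Mb and 75 in the first 5 Mb. Of 132 values for single genes under other settings, 24 moved by over 1.5 times. Among them the covered share fell to 15.4% at myod1 and 21.9% at pax7 without peaks over 2 kb wide, and the highest fold of myod1 was 22.2 with flanks of 25 kb. Depth limits the low peaks most, where a summit of 14 fragments has an interval from 7.65 to 23.5.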
